A study of Mus musculus with 23 samples.

Results

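The genes described here are those that make creatine, bring it into the cell and charge it with phosphate: Gatm, Gamt, Slc6a8 and Ckb. They were chosen by symbol from the table of normalized counts, and all 4 were found among its 14651 genes. Their levels were compared in BAT (brown adipose tissue) between mice at room temperature (RT) and at 4°C, and between mice with and without the mitochondrial calcium uniporter in brown fat.

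RNA was sequenced from the BAT of 23 C57BL/6 mice, all males aged 8 to 12 weeks. Control mice carried the floxed allele alone (Mcu[fl/fl]), and BAT-Mcu-KO mice, or knockouts, carried it together with the Cre transgene (Mcu[fl/fl];Ucp1-Cre). Mcu encodes the pore of the uniporter, and the Ucp1 promoter of the transgene directs its deletion to brown adipocytes, so that the other cells of the tissue keep the gene. The RT groups held 6 controls and 6 knockouts, and 5 controls and 6 knockouts spent 6 h at 4°C. The mice in the cold were housed singly and had water, and by the general protocol no food, while the feeding of the RT mice over these hours is not given in the sources used here. Cold, single housing and the lack of food therefore cannot be told apart.

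Creatine is built from amino acids in a pair of steps. Gatm transfers the amidino group of arginine to glycine, which leaves ornithine and guanidinoacetate, and Gamt then methylates guanidinoacetate with S-adenosylmethionine. Slc6a8 is the plasma membrane transporter that takes up creatine from the blood, and Ckb is the brain-type cytosolic creatine kinase, which passes phosphate between ATP and creatine. In brown and beige fat creatine is known for a proposed futile cycle, in which phosphocreatine is made and broken down again and ATP is spent as heat.

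Summed over the 14651 genes, the reads recovered from the normalized counts were 7129271 to 21006347 per mouse, of which mitochondrial transcripts took 23.1% to 38.1%. The labels were checked on Mcu, whose normalized counts (reads over the sample's size factor, which adjusts for depth) were 70.8 to 136 in control mice and 15.2 to 42.4 in knockouts, with no overlap. All 10 brown adipocyte markers, Ucp1 and Adipoq among them, were detected in every mouse. Markers of skeletal muscle varied widely: the sum of 14 such genes ran from 32.4 to 61672 normalized counts, and at least 1 mouse of every group was under 100 while others of the same group were above 1000. The RNA is from whole tissue, so fewer cells of a type and less RNA per cell cannot be told apart.

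Cold changed 2 of the 4 genes, and in opposite directions. Ckb rose and Gamt fell in both genotypes, while the changes of Gatm and Slc6a8 did not pass the test in either. This compares with 46.0% of all genes called in control mice (22.3% higher and 23.7% lower) and 43.3% in knockouts (21.4% higher and 21.9% lower), so that a share of 2 in 4 is near the background. The median log2 fold change of the 4 genes was -0.30 in control and -0.35 in knockouts, against -0.02 over all genes in each. None of the 4 was called by genotype at either temperature or by the interaction of genotype and cold. A gene was called at a Benjamini-Hochberg adjusted p under 0.05 in limma, fitted to log2(normalized count + 1) of all 14651 genes.

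Ckb lies on the minus strand of chromosome 12, at 111669361 to 111672338 of GRCm38 (mm10), and its annotation holds 8 exons. Gamt is on the minus strand of chromosome 10, from 80258151 to 80261012, with 6 exons. No other annotated gene overlaps either. The 250 bases upstream of their RefSeq start sites (GRCm38.p6) are shown because these were the members that moved with cold. Each is written 5′ to 3′ on the strand of the gene, and its last base is next to the start site. Capitals mark matches, on either strand, to 3 motifs of core promoters: the TATA box (TATAAA), the CCAAT box (CCAAT) and the GC box (GGGCGG).
Ckb promoter, chr12:111672339-111672588: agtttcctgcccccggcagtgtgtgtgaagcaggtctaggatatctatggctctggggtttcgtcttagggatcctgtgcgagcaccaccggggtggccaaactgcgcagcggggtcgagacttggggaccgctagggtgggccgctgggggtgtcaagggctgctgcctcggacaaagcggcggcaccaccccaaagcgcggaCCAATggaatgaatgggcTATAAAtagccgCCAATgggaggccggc
Gamt promoter, chr10:80261013-80261262: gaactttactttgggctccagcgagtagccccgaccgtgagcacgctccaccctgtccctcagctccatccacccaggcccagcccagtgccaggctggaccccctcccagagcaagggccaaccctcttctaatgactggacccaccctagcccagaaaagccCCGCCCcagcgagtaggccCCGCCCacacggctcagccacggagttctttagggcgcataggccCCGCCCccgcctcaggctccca
The Ckb window held TATAAA 28 to 23 bases upstream of the start, between CCAAT boxes at 46 to 42 and at 16 to 12 bases. The Gamt window held neither, but had 3 GC boxes, all on the opposite strand as CCGCCC, at 86 to 81, 67 to 62 and 22 to 17 bases upstream. In the corresponding window of Gatm (chr2:122611278-122611527) there were CCAAT boxes at 55 to 51 bases and, on the opposite strand, at 190 to 186 bases. Of the 32851 promoter windows of this length in the table, 12.4% held TATAAA, 33.8% CCAAT and 32.7% GGGCGG. The cAMP response element TGACGTCA (1.55% of all windows), its shorter form TGACG (17.8%), which is also part of it, the ATF4-C/EBP element TGATGNAA (3.45%) and the estrogen-related receptor motif AAGGTCA (4.08%) were searched on both strands and had no match in these 3 windows. The window of Slc6a8 was not analysed here.

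Ckb was the member with the highest level and the largest change by cold. In control mice at RT its normalized count was 234 at the lowest, 313 at the median and 369 at the highest (311 ± 52.7, SD, n = 6). The 5 control mice at 4°C had 621, 1304, 1269, 1369 and 1106 (1134 ± 303, SD, n = 5). All 5 were above every control mouse at RT, although the lowest of them lay apart from the other 4, which were close together. The mean was 3.65-fold higher in the cold, and the log2 fold change was 1.83 ± 0.22 (SE, 95% interval 1.37 to 2.28, limma adjusted p = 2.3e-07).

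Ckb also rose in knockouts. At RT the Ckb count ran from 253 through a median of 364 to 652 (379.6 ± 144, SD, n = 6). At 4°C it ran from 861 through 1645 to 1695 (1475 ± 334, SD, n = 6). No mouse at 4°C overlapped with those at RT, and 4 of the 6 lay within a narrow band at the top, between 1612 and 1695. The ratio of the means was 3.88 and the log2 fold change 1.99 ± 0.21 (SE, 95% interval 1.56 to 2.42, limma adjusted p = 2.9e-08). Groups without overlap and higher in the cold were found for 13.0% of genes in control and 12.4% in knockouts, while 2.12% and 1.48% of genes had a larger log2 fold change than Ckb.

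**Figure D1:**
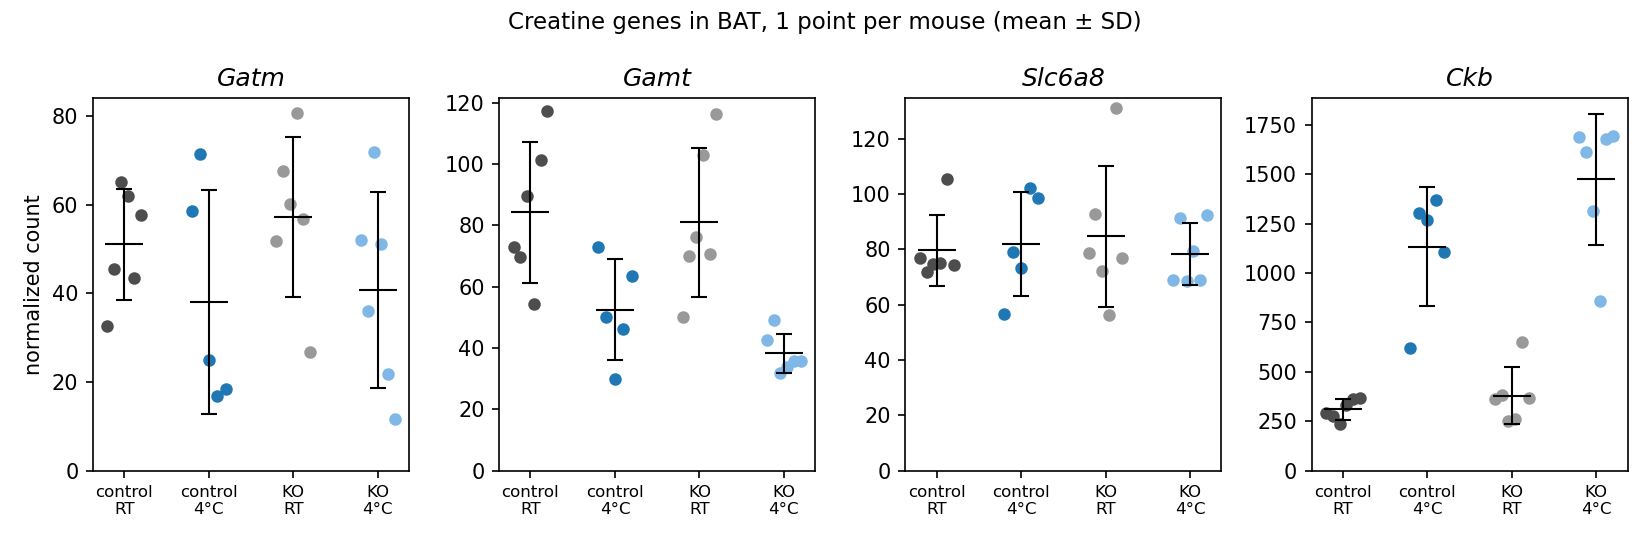
Normalized counts of Gatm, Gamt, Slc6a8 and Ckb (y axes, each with its own range from 0) in the 4 groups (x axis), with 1 point per mouse and bars for the mean ± SD. The Ckb points at 4°C sit above all RT points of the same genotype, the Gamt points of knockouts at 4°C sit below all of those at RT, and the points of Gatm and Slc6a8 overlap between temperatures.

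The summed level of 5 endothelial markers also differed by temperature. It was 2554 to 3851 at RT and 4698 to 7479 at 4°C in control mice, and 2852 to 3736 against 4380 to 6284 in knockouts, without overlap in either. The genes called higher were Pecam1 and Kdr, 2 of the 5 in each genotype against 22.3% and 21.4% of all genes, while Cdh5, Tek and Vwf were not called. The summed level of 10 brown adipocyte markers also did not overlap between temperatures. In control mice it was 180979 to 250997 at RT and 297172 to 360955 at 4°C. In knockouts it was 179470 to 201711 against 299867 to 334335. Of these 10, 5 were called higher and 3 lower in control mice, and 4 higher and 1 lower in knockouts. Over all genes, 23.7% and 21.9% were called lower. The part of either set of markers in the rise of Ckb was not tested.

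Gamt, the methyltransferase of the second step, went the other way. Control mice at RT had 54.4, 81.3 and 117 normalized counts as the lowest, the median and the highest (84.2 ± 22.97, SD, n = 6). At 4°C the 5 control mice had 72.8, 50.1, 29.9, 46.3 and 63.3 (52.5 ± 16.5, SD, n = 5). The ranges overlapped, with 3 of the 5 below every mouse at RT and the other two within the RT range. The ratio of the means was 0.623 and the log2 fold change -0.69 ± 0.23 (SE, 95% interval -1.16 to -0.21, limma adjusted p = 0.0166). This call rested on few reads, 24 to 118 per mouse, and without control 4°C replicate 3, the lowest of its group, the log2 fold change was -0.51 and the adjusted p 0.0744.

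In knockouts Gamt fell as well, and the groups did not overlap. Its count at RT was 50.1 at the lowest, 73.4 at the median and 116 at the highest (81.0 ± 24.3, SD, n = 6). At 4°C it was 32.0, 35.8 and 49.1 (38.2 ± 6.47, SD, n = 6). All 6 mice in the cold were below all 6 at RT, by a narrow margin between the highest of one group and the lowest of the other. The ratio of the means was 0.471 and the log2 fold change -1.03 ± 0.22 (SE, 95% interval -1.48 to -0.57, limma adjusted p = 0.000474). This call too rested on few reads, 58 to 118 per mouse at RT and 20 to 65 at 4°C. Groups without overlap and lower in the cold were found for 11.9% of genes in this comparison.

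Gatm, which starts the synthesis, lies on the minus strand of chromosome 2 (122594467 to 122611303, 9 exons) and had the fewest counts of the 4. In control mice it was 32.7, 51.6 and 65.1 at the lowest, the median and the highest at RT (51.1 ± 12.5, SD, n = 6). At 4°C the 5 mice had 58.7, 71.3, 24.9, 16.9 and 18.4 (38.0 ± 25.2, SD, n = 5). These mice were split, 3 of them below all mice at RT and 1 above all of them. The log2 fold change was -0.62 ± 0.40 (SE, 95% interval -1.44 to 0.20, limma adjusted p = 0.210).

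Gatm was scattered in knockouts as well. Counts were 26.7, 58.4 and 80.6 at RT (57.2 ± 18.04, SD, n = 6) and 11.7, 43.6 and 71.9 at 4°C (40.7 ± 22.1, SD, n = 6), again as the lowest, the median and the highest. Only 2 of the 6 mice in the cold were below the RT range. The log2 fold change was -0.62 ± 0.38 (SE, 95% interval -1.41 to 0.16, limma adjusted p = 0.194). The intervals reach from a fall larger than that measured for Gamt to a small rise, so these data do not show that Gatm was unaffected.

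Slc6a8, the creatine transporter, is on the plus strand of the X chromosome (73673150 to 73682502, 13 exons). Its count in control mice was 71.8, 74.8 and 106 at RT as the lowest, the median and the highest (79.7 ± 12.8, SD, n = 6), and 56.6, 78.9, 73.4, 102 and 98.6 in the 5 mice at 4°C (81.9 ± 18.8, SD, n = 5). In knockouts it was 56.4, 77.8 and 131 at RT (84.7 ± 25.6, SD, n = 6) and 68.7, 74.3 and 92.6 at 4°C (78.3 ± 11.3, SD, n = 6). The ranges of all 4 groups overlapped. By cold, the log2 values of Slc6a8 differed by 0.02 ± 0.18 (SE, 95% interval -0.36 to 0.40, limma adjusted p = 0.935) in control and -0.07 (95% interval -0.43 to 0.29, adjusted p = 0.764) in knockouts. A change of Slc6a8 by cold as large as that of Ckb is outside both intervals, and smaller changes in either direction are inside.

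Loss of Mcu was not seen to change any of the 4 genes, in a comparison that called few genes at all. At RT 0.0478% and at 4°C 0.0751% of genes were called, and the interaction called 0 genes in limma, with 878 genes at an unadjusted p under 0.05, 28 called by DESeq2 and 0 by edgeR. The largest differences by genotype were those of Ckb and Gamt at 4°C. The Ckb count of 4 of the 6 knockouts at 4°C was above all 5 control mice, and the log2 fold change was 0.39 (95% interval -0.06 to 0.85, limma unadjusted p = 0.0860, adjusted p = 0.755). For Gamt at 4°C it was -0.40 (95% interval -0.88 to 0.07, limma unadjusted p = 0.0934, adjusted p = 0.773). At RT the log2 fold change was 0.23 for Ckb (95% interval -0.20 to 0.66, limma adjusted p = 0.993) and -0.06 for Gamt (95% interval -0.52 to 0.39, adjusted p = 0.999). For Gatm and Slc6a8 the log2 fold changes by genotype lay between -0.04 and 0.13, with limma adjusted p-values of 0.977 to 0.999.

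A difference between the genotypes in the response to cold was not shown for any of the 4 genes. The difference between the log2 fold changes by cold, knockout minus control, was 0.16 for Ckb (95% interval -0.46 to 0.79, limma adjusted p = 0.953) and -0.34 for Gamt (95% interval -0.997 to 0.32, adjusted p = 0.901). It was -0.10 for Slc6a8 (95% interval -0.62 to 0.43, limma adjusted p = 0.967), and for Gatm it was close to 0 with an interval from -1.14 to 1.13. Differences as large as the rise of Ckb itself are thus outside the interval for Ckb, and smaller ones up to 0.79 are not.

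**Figure D2:**
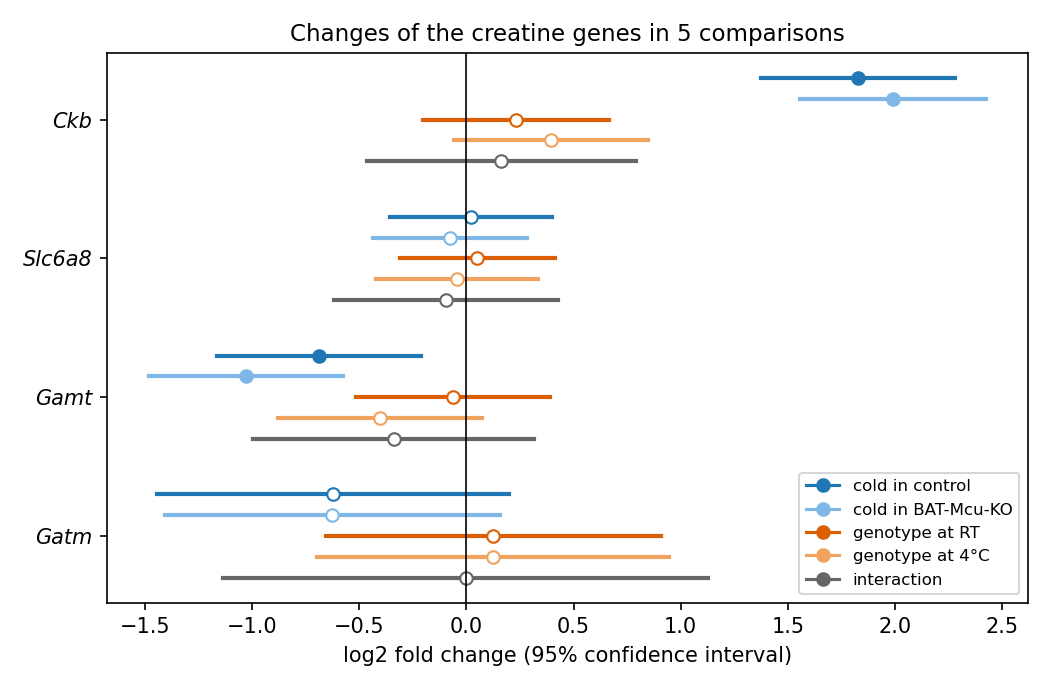
Log2 fold changes (x axis) of Ckb, Slc6a8, Gamt and Gatm (y axis) in 5 comparisons, with 95% confidence intervals as lines; filled points passed an adjusted p of 0.05 and open points did not. Only the points of Ckb and Gamt by cold are filled, to the right of 0 for Ckb and to the left for Gamt, and the intervals of Gatm are the widest.

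Compared per length, Ckb was above the genes of synthesis and uptake in every group, by a margin that depended on the length used. Divided by the length of the longest coding transcript in kb, the mean normalized count of Ckb was 211 in control mice at RT, 770.2 in control mice at 4°C, 258 in knockouts at RT and 1002 in knockouts at 4°C. In the same order of groups, the level per kb was 85.3, 53.1, 82.0 and 38.7 for Gamt, 20.1, 20.7, 21.4 and 19.8 for Slc6a8, and 21.4, 15.9, 24.0 and 17.0 for Gatm. Divided by the length of all annotated exons instead, Ckb and Gamt were at 107 and 58.3 in control mice at RT and at 392 and 36.3 at 4°C. In knockouts they were at 131 and 56.1 at RT and at 509 and 26.4 at 4°C. By the longest coding transcript, Ckb was the highest of the 4 in 23 of 23 mice, and Gamt was above both Slc6a8 and Gatm in every mouse. Slc6a8 and Gatm were not ordered: Slc6a8 was above Gatm in 2 of 6 control mice at RT, 3 of 5 control mice at 4°C, 2 of 6 knockouts at RT and 3 of 6 at 4°C.

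Of the other creatine kinases, Ckm (the cytosolic form of muscle) and Ckmt2 (the mitochondrial form of striated muscle) were measured, and Ckmt1 was not analysed here. Both followed the skeletal muscle markers. Ckm ran from 0 to 5811 normalized counts, and in 5 mice both Ckm and Ckmt2 were at 3 reads or fewer. In those same 5 mice the summed muscle markers were at most 82.6, against at least 1870.0 in all others. Neither gene was called in any comparison by limma, with log2 fold changes by cold of 0.11 ± 2.35 (SE) in control and -0.91 ± 2.24 in knockouts for Ckm (limma adjusted p = 0.976 and 0.776). By edgeR on the reads Ckmt2 was called by cold in both, higher in controls (2.72, adjusted p = 0.0418) and lower in knockouts (-2.78, adjusted p = 0.0274). Exons of Ckm overlap those of the antisense gene A930016O22Rik, and exons of Ckmt2 those of 1700119I11Rik. Because counting ignored strand, reads of these overlaps cannot be told apart, and how they were counted is not stated.

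Ckb did not rise with the muscle markers as Ckm and Ckmt2 did. In the 5 mice with almost no Ckm or Ckmt2, the Ckb count was 369 and 652 in the 2 mice at RT and 621 to 1695 in the 3 mice at 4°C. Of these, control RT replicate 6, knockout RT replicate 5 and knockout 4°C replicate 6 had the highest Ckb count of their group. Control 4°C replicate 1 had the lowest of its group, and replicate 3 was neither. With the log2 of the summed muscle markers as a covariate, added after the data were seen, the log2 fold change of Ckb by cold was 1.84 in control and 1.96 in knockouts, and that of Gamt -0.70 and -0.9997, all still called. The share of Ckb in the counts of Ckb, Ckm and Ckmt2 tended to be lower where the muscle markers of the mouse were higher. It ran from 3.68% to 100% over all mice, with group medians of 57.4% in control mice at RT, 47.4% in control mice at 4°C, 25.6% in knockouts at RT and 72.8% in knockouts at 4°C.

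**Figure D3:**
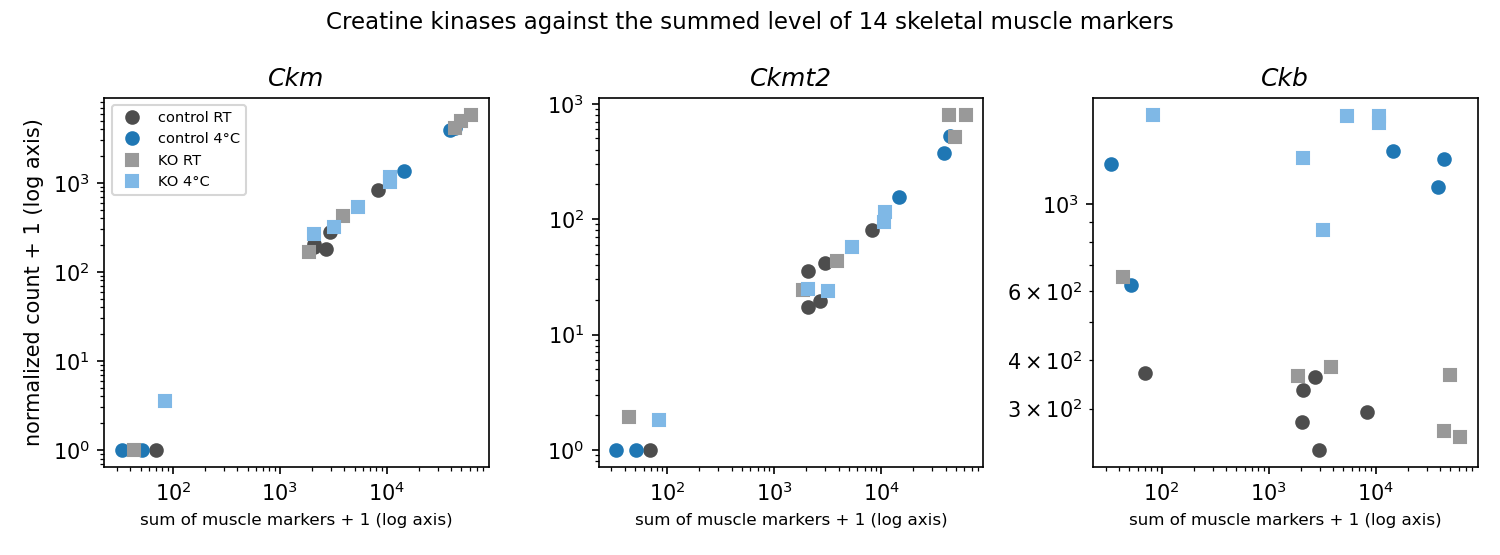
Normalized counts + 1 of Ckm, Ckmt2 and Ckb (y axes, logarithmic) against the sum of 14 skeletal muscle markers + 1 (x axis, logarithmic) in each of the 23 mice, with circles for control and squares for knockouts. Ckm and Ckmt2 lie along a line with the markers, and 5 mice sit near 0 in both, while Ckb is higher at 4°C than at RT within each genotype, also among the 5 mice near 0.

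Alpl encodes tissue-nonspecific alkaline phosphatase, which has been described as a phosphatase of phosphocreatine in fat. Its count was 180.2 to 454 at RT and 267 to 527 at 4°C in control mice, and the log2 fold change of 0.36 ± 0.20 (SE, 95% interval -0.06 to 0.77) was not called (limma adjusted p = 0.151). In knockouts it went from 235 to 419 at RT to 329.5 to 595 at 4°C, and the log2 fold change of 0.61 ± 0.19 (SE) was called (limma adjusted p = 0.0111). The ranges overlapped in both genotypes. The interaction was not called, and without control RT replicate 1 the log2 fold change in control mice was 0.50 and was called (limma adjusted p = 0.0330).

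Among the genes around creatine synthesis, Asl, Ass1 and Slc7a1, which supply arginine, rose with cold. Of 7 genes of arginine supply and use, 5 were measured. In controls 3 were called higher and 0 lower, and in knockouts 3 higher and 1 lower. Of all genes, 22.3% and 21.4% were called higher, and 23.7% and 21.9% lower. The median log2 fold change of these 5 was 0.87 in control and 1.21 in knockouts, against -0.02 over all genes in each. Asl, the lyase that releases arginine in its synthesis, went from 187 ± 48.0 (SD, n = 6) to 1041 ± 531 (SD, n = 5) normalized counts in controls, and from 193 ± 33.8 to 1535 ± 931 in knockouts (SD, n = 6 each), log2 fold changes of 2.37 and 2.81 (limma adjusted p = 6.5e-07 and 2.2e-08). Ass1, the step before it, rose by 0.87 and 1.21 on the log2 scale (limma adjusted p = 0.0175 and 0.00110), and in controls it was not called without control 4°C replicate 4 (0.72, adjusted p = 0.0633). Slc7a1, the importer of cationic amino acids, went from 17.8 ± 9.13 to 207.5 ± 58.5 in controls, and from 18.4 ± 6.46 to 94.8 ± 26.2 in knockouts, log2 fold changes of 3.56 and 2.32 (limma adjusted p = 2.3e-10 and 1.4e-07). Few reads underlie the RT levels of Slc7a1, 8 to 35 per mouse in controls and 14 to 30 in knockouts. The same holds for Ass1 at RT, with 17 to 52 in controls and 9 to 37 in knockouts.

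Slc7a2, a second importer of this family, was lower in the cold in knockouts (log2 fold change -1.32, limma adjusted p = 0.00551) and not called in control mice (-0.32, adjusted p = 0.535). It is outside the rule for naming genes and was chosen after its values were seen. Its interaction of -1.001 was not called (limma adjusted p = 0.841), so that a difference between the genotypes was not shown.

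Ornithine, the other product of the Gatm step, is used by Oat and Odc1. All 6 genes of ornithine use were measured, with 1 called higher and 1 called lower by cold in each genotype and a median log2 fold change of -0.17 in control and -0.08 in knockouts. The shares over all genes were 22.3% higher and 23.7% lower in control mice, and 21.4% and 21.9% in knockouts. Oat, the mitochondrial aminotransferase, fell by 0.52 and 0.55 on the log2 scale (limma adjusted p = 0.000465 and 0.000170). Odc1, the first enzyme of polyamine synthesis, rose by 0.73 and 0.65 (limma adjusted p = 0.0112 and 0.0182), and in knockouts it was not called without knockout RT replicate 6 (0.54, adjusted p = 0.0554).

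Of 12 genes of the methyl donor cycle, which supplies the S-adenosylmethionine used by Gamt, 10 were measured. In control mice 3 were called higher and 3 lower, and in knockouts 5 higher and 3 lower, with median log2 fold changes of -0.10 and 0.31. Over all genes, 22.3% were called higher and 23.7% lower in control mice, and 21.4% and 21.9% in knockouts. Nnmt, which methylates nicotinamide and so spends the same donor, went from 578 ± 201 to 6435 ± 1153 normalized counts in controls, and from 799 ± 391 to 8170.2 ± 979 in knockouts, log2 fold changes of 3.55 and 3.46 (limma adjusted p = 3.3e-11 and 2.2e-11). Its lowest mouse at 4°C, at 4698, was above the highest at RT, at 1543.

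Mat2a, the synthase of the donor outside the liver, rose by 0.69 and 0.63 on the log2 scale (limma adjusted p = 7.5e-05 and 0.000145). Methionine synthase Mtr fell by 0.66 and 0.74 and its reductase Mtrr rose by 1.10 and 0.80, all of them called. Ahcyl1 and Ahcyl2, relatives of the enzyme that clears S-adenosylhomocysteine, were lower by cold in both genotypes, with log2 fold changes of -0.27 and -0.34 for Ahcyl1 and of -0.81 and -0.74 for Ahcyl2. In controls Mtr was not called without control RT replicate 2 (-0.50, limma adjusted p = 0.0649) or 4°C replicate 3 (-0.55, adjusted p = 0.0678), and Ahcyl1 without RT replicate 4 or 5 or 4°C replicate 3 or 5 (-0.25 to -0.18, adjusted p = 0.0552 to 0.107). Ahcyl1 in controls was also not called when the fit held the 2 control groups alone (-0.27, limma adjusted p = 0.0670). In knockouts Gnmt (0.99, limma adjusted p = 0.00271) and Ahcy (0.67, adjusted p = 0.00954) were also called higher. Both were chosen after their values were seen, and their interactions of 1.06 and 0.51 were not called (limma adjusted p = 0.780 and 0.852).

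For glycine, the other substrate of Gatm, 3 of 5 genes were measured, with a median log2 fold change of -0.03 in control and 0.16 in knockouts. In each genotype 1 was called higher and 0 lower, where 22.3% and 21.4% of all genes were called higher. That gene was Slc38a2, a transporter of small neutral amino acids, at 568.5 ± 147 and 1791 ± 208 normalized counts in control and 615 ± 101 and 1372 ± 145 in knockouts, log2 fold changes of 1.69 and 1.16 (limma adjusted p = 9.5e-10 and 2.2e-07). The hydroxymethyltransferases Shmt1 and Shmt2, which make glycine from serine, were not called.

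Adenylate kinases and the ADP/ATP carriers also move high-energy phosphate. Of 8 such genes 7 were measured. By cold 1 was called lower in control mice and 4 in knockouts, where 23.7% and 21.9% of all genes were called lower. In each genotype 1 was called higher, against 22.3% and 21.4% of all genes. That gene was Ak6, higher by 0.60 and 0.68 on the log2 scale (limma adjusted p = 4.9e-05 and 5.4e-06), but it shares exon sequence with Taf9 and Rad17, whose reads cannot be told apart by strand. In knockouts Ak1 (-0.78, limma adjusted p = 0.0345), Ak3 (-0.32, adjusted p = 0.0203) and Slc25a4 (-0.43, adjusted p = 0.00467) were among those called lower, and these were chosen after their values were seen. The summed skeletal muscle markers of knockouts also differed, with a median of 23647 at RT and 4291 at 4°C. Their part in these changes was not tested. No gene of these 5 lists was called by genotype or by the interaction.

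**Figure D4:**
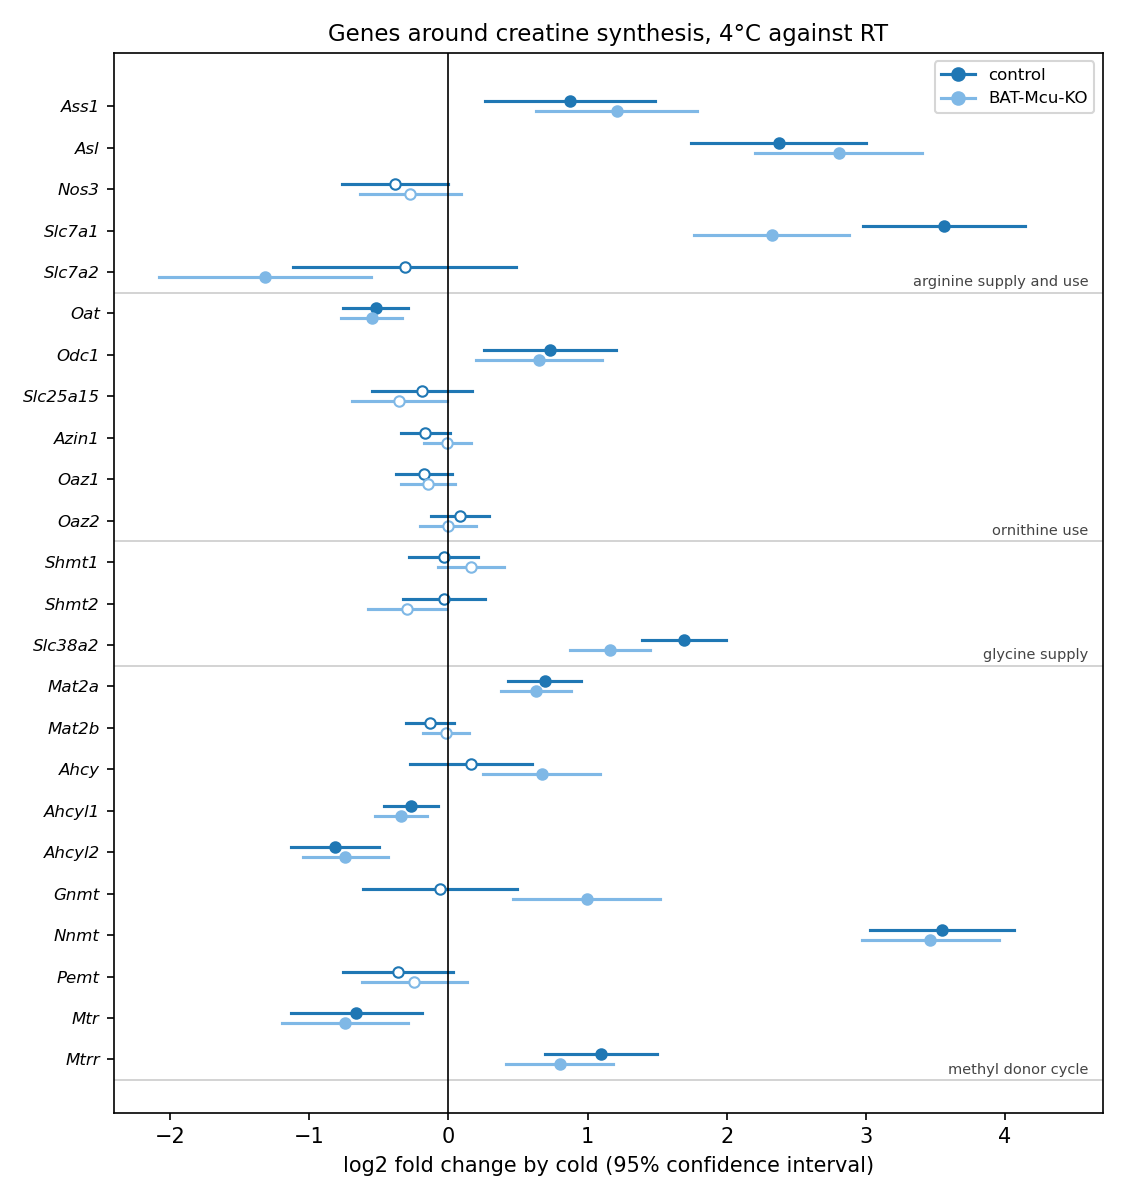
Log2 fold changes by cold (x axis) of the genes around creatine synthesis (y axis, in 4 lists) in control (dark blue) and knockouts (light blue), with 95% confidence intervals as lines; filled points passed an adjusted p of 0.05 and open points did not. Asl, Slc7a1 and Nnmt lie farthest to the right in both genotypes, while most genes of ornithine use lie close to 0.

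The genes whose levels most resembled each of the 4 were sought among genes whose mean normalized count reached 50, by Pearson's r of log2 values over the 23 mice. These correlations are a description, since the mice share their libraries' scaling between genes and fall into groups by temperature. For Ckb they were Ctsz, a lysosomal cathepsin (r = 0.960), Slc12a2, the Na-K-Cl cotransporter (0.949), and Slc25a34, a mitochondrial carrier (0.945), and 72 of 9527 genes had r over 0.9. After subtraction of the group means r was 0.697, 0.665 and 0.542. For Gamt they were Cul7 (0.885), Amotl1 (0.876) and Pcna (0.870), with 0 genes over 0.9.

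Gatm and Slc6a8 had weaker partners. The levels of Slc6a8 resembled those of Dot1l, a histone methyltransferase (r = 0.731), and Atxn2 (0.718), and those of Gatm resembled Mocos (0.709) and Stx8 (0.694). For both, 0 genes had r over 0.9.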

How the data were processed

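Per the labels and the study's methods, the authors made Smart-seq2 libraries of BAT RNA, aligned the reads to mm10 (GENCODE M7) with STAR 2.4.0j and counted uniquely mapped exonic reads with HTSeq irrespective of strand, so that overlapping genes cannot be separated. The deposited signal is the count of each gene divided by the DESeq2 size factor of its sample. All values were whole multiples of 1 read (tolerance 0.01 reads), which gave back the reads. Numbers of reads tell counting error only, since PCR copies are not independent molecules. A deposited table of the authors' own comparisons (fold changes and p-values) was not used.

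Each mouse was assigned by its label, and the number of columns left out was 0. The 14651 genes, each reaching 8 reads in 6 samples or more, were tested with limma 3.58.1 (R 4.3.3) with a variance trend on log2(normalized count + 1), with 4 group means over 23 mice and a Benjamini-Hochberg threshold of 0.05. Fold changes on this scale understate those of low genes. The members, gene lists and tests were chosen with earlier results of these data known. The rule named the members, the other creatine kinases and creatine handling genes, list genes called by cold in both genotypes in the same direction or by genotype or interaction, and the 3 genes most like each member. Some genes that this rule names are not reported here. Alternatives were a pseudocount of 0.5 or 10, a minimum mean of 50, quantile and 75th percentile scaling, no trend, the 2 compared groups alone, the replicate number as a block, DESeq2 1.42.0, edgeR 4.0.16 (quasi-likelihood test), each mouse left out and, added after the data were seen, muscle markers as a covariate. The tests were tried on simulated data. Positions are from GENCODE M21 (GRCm38), promoters from RefSeq. Tables were read with pandas 2.3.3 (Python 3.11.15) and drawn with matplotlib 3.10.9. Each sample is 1 animal, so SDs are over mice.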

Additional observations from a re-analysis of the deposited data

Results flagged for a closer look

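Ckb, Gatm, Gamt, Slc6a8, Ckm, Ckmt2 and Alpl were each examined in every group of 5 or 6 mice, 28 sets in all. In 3 of these 28 sets the gap between the highest or lowest mouse and its neighbour exceeded Dixon's 95% limit. Chance passes this limit in about 0.05 of sets. The Slc6a8 count of control RT replicate 5 was 106, and its gap to the next mouse took 0.853 of the group's range (limit 0.625). The Ckb count of knockout RT replicate 5 was 652, with a gap of 0.675 of the range. That mouse also had the highest Slc6a8 count of all, 131, and was among the 5 with almost no Ckm or Ckmt2. The Ckm count of control RT replicate 1 was 829.6, with a gap of 0.664 of the range, and the summed muscle markers of that mouse, 8250.0, were the highest of its group.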

How the results depend on the processing

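The rise of Ckb by cold kept direction and call under every alternative run, with log2 fold changes of 1.71 to 2.03 in control (adjusted p 1.8e-16 to 2.9e-06) and 1.87 to 2.16 in knockouts. The fall of Gamt in knockouts did so too (-1.15 to -0.89). In control mice it ranged from -0.82 to -0.51 and was not called without control 4°C replicate 3. Over the 4 members 455 of 487 values kept direction and call, 1 lost its call and 31 changed sign, none of the latter a called result. For the other named genes these were 738 of 763 values, with 9 calls lost, 4 gained and 12 changes of sign.

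The counts of genes called by genotype moved. At RT 7 became 3 with the 2 groups alone and 20 with DESeq2 (5 to 8 with a mouse left out). At 4°C 11 became 7 without the trend, 2 with the 2 groups alone, 7 with the replicate number as a block, 23 with DESeq2, 6 with edgeR and 3 to 16 with a mouse left out. The interaction went from 0 to 28 with DESeq2 and to 0 to 1 with a mouse left out, and none of its fits used 2 groups alone. The cause was not tested.

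Changes of sign with a mouse left out were within these ranges: Ckb interaction -0.041 to 0.33; Gamt at RT -0.18 to 0.063; Gatm at 4°C -0.10 to 0.42 and interaction -0.22 to 0.30; Slc6a8 by cold -0.065 to 0.14 in control and -0.18 to 0.060 in knockouts, by genotype -0.083 to 0.16 at RT and -0.17 to 0.042 at 4°C, and interaction -0.22 to 0.038; Ckm -1.25 to 1.82 in control and -2.68 to 0.30 in knockouts, and Ckmt2 -0.25 to 2.01 in control mice. Slc6a8 by cold was 0.027 in knockouts with quantile normalization and -0.086 in control mice with 75th percentile scaling. The Gatm interaction was 0.017 and 0.053 with these, 0.15 with the replicate block and 0.0039 with muscle markers as covariate. Ckm by cold in control mice was -0.12 with a pseudocount of 0.5, -0.52 with the replicate block and -0.34 with muscle markers as covariate, with which it was 0.49 in knockouts and Ckmt2 was called there (-0.66, limma adjusted p = 0.0310).

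Scaling to the 75th percentile moved the all-gene median of the log2 fold changes by cold in controls from -0.02 to -0.13 and the share of higher genes among those called from 48.5% to 38.2%. The replicate numbers did not pair the mice (same-number correlations of deviations averaged 0.210 at 4°C between genotypes, where 2 mice correlated best with their own number, and -0.16 to -0.01 in the other comparisons), and the block changed no call of a member. Gatm was not tested with the minimum mean of 50, which it does not reach. At 14 to 90 reads per mouse its error is large.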

Other observations

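Among the amino acid and methyl donor genes, 3 differed by genotype at 4°C at an unadjusted p under 0.05 both there and in the interaction without passing the correction, and were chosen after their values were seen. Over all 14651 genes, limma gave an unadjusted p under 0.05 to 1023 by genotype at 4°C and to 878 in the interaction. How many met both was not counted. Slc7a1, the importer of cationic amino acids, had 208 ± 58.5 normalized counts in control (SD, n = 5) and 94.8 ± 26.2 in knockouts (SD, n = 6), a log2 fold change of -1.12 (limma unadjusted p = 0.000545, adjusted p = 0.258). For Slc38a2 it was -0.38 (limma unadjusted p = 0.0146, adjusted p = 0.591). Gnmt, the glycine methyltransferase, went the other way, with 38.5 ± 11.5 in control and 78.4 ± 29.3 in knockouts at 4°C and a log2 fold change of 0.97 (limma unadjusted p = 0.00135, adjusted p = 0.319).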
